A study of Mus musculus with 21 samples.

Results

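NF-kB is a family of dimeric transcription factors that drives much of the inflammatory response of microglia and other myeloid cells. The transcripts examined here were those of its 5 subunits, Nfkb1, Nfkb2, Rel, Rela and Relb, and of 5 genes that restrain or modulate it, Nfkbia, Nfkbie, Nfkbiz, Tnfaip3 and Bcl3. They were chosen by symbol from the deposited table of scaled gene counts, in which each of the 10 symbols matched 1 of 45706 gene rows, and all 10 passed the filter on low counts.

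The study used male mice of 17 to 24 weeks on a C57BL/6 background and asked how fibrin acts on innate immune cells after traumatic brain injury (TBI). The injury was a controlled cortical impact (CCI), a piston strike on the exposed cortex, and in the sham operation the skull was opened but not struck. Fgg390-396A mice carry a fibrinogen gamma chain that still clots but lacks the motif bound by the integrin CD11b/CD18 on myeloid cells. Fgg, the targeted gene, which is expressed mainly in the liver, had 0 counts in every sham and wildtype library. All Fgg390-396A microglia libraries held some, 2 to 6 counts at 1 d and 3 to 14 at 7 d, and 1 of the 3 Fgg390-396A infiltrating cell libraries held 1 count. Counts per gene do not read the changed residues of the allele. There were 7 groups of 3 libraries, 21 in all: microglia of wildtype sham mice, microglia of wildtype and Fgg390-396A mice at 1 d and at 7 d post-CCI, and infiltrating myeloid cells of both genotypes at 1 d post-CCI, which the labels call macrophages. There was no sham group of the Fgg390-396A genotype, so every injured group was set against the same wildtype sham libraries. No day after surgery was given for these sham libraries, which served as the baseline for both 1 d and 7 d. Each library pooled the sorted cells of 2 brains, 40000 CD45low CD11b+ microglia or 25000 CD45hi CD11b+ infiltrating cells.

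In resting cells NF-kB dimers are held in the cytoplasm by inhibitor of kappa B (IkB) proteins. When receptors for cytokines or microbial products are engaged, a kinase complex marks these proteins for degradation and the dimers enter the nucleus. Among the genes they switch on are those of their own inhibitors, so that transcripts such as Nfkbia and Tnfaip3 serve as a readout of recent activity as well as a brake.

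Depth and purity bear on the values as follows. Total counts per library lay between 18896963 and 51875790, and levels are given as CPM, counts relative to library size after TMM scaling in edgeR. A count of 3, the smallest level read as detected, was worth 0.0448 to 0.158 CPM, and this floor covers counting error only. Gene length had been divided out within each library, so levels of different genes can be set side by side per length. The summed level of 10 microglial markers was 12260 to 13730 CPM in sham microglia and 391 to 1101 CPM in infiltrating myeloid cells, with none of the 10 missing from any library. In microglia at 1 d post-CCI it had a range of 3299 to 5322 CPM in wildtype and 6089 to 7804 CPM in Fgg390-396A mice. Neutrophil markers summed to 2516 to 13000 CPM in infiltrating myeloid cells, next to 2034 to 2413 CPM for monocyte markers, so the libraries labelled macrophage also held neutrophil transcripts. Among sham libraries the neutrophil sum was 1.94, 88.9 and 630 CPM in replicates 1, 2 and 3. Sham replicate 1 held 1983 CPM of 25 genes that respond to tissue dissociation, against 525 and 748 CPM in replicates 2 and 3. In bulk libraries fewer cells of a type and less RNA per cell cannot be told apart.

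Several members carry letters in their promoters that NF-kB dimers can bind. The RefSeq promoters of GRCm38.p6, taken from 250 bases before to 50 bases after a start, covered 7 members, with 10 starts in all. Nfkb1, Relb and Nfkbiz were not among them. The NF-kB consensus was found on either strand in 8 of the 10 member promoters and in 6 of the 7 members, against 4.51% of 32851 promoters. A 9-letter form, GGNNTTTCC, which can overlap the consensus, was found in 5 of the 7 members and in 5.82% of all promoters. The following 30 bases are shown because they hold the match nearest the start (the first listed start for Nfkb2) of each member with a match, in capitals, read 5′ to 3′ on the strand of the gene.
Nfkbia, chr12:55492657-55492686, minus strand: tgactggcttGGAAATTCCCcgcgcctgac
Tnfaip3, chr10:19015409-19015438, minus strand: gactGGAATTTCCatcGGAAATCCCCctgt
Bcl3, chr7:19822734-19822763, minus strand: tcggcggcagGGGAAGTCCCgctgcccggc
Nfkbie, chr17:45555584-45555613, plus strand: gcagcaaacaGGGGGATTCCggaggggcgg
Rel, chr11:23771042-23771071, minus strand: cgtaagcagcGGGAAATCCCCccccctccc
Nfkb2, chr19:46304716-46304745, plus strand: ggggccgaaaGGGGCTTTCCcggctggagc
With the start counted as 1, the consensus match lay at -29 to -20 in Nfkbia and at 3 to 12 in Bcl3. Tnfaip3 held a pair of matches side by side, at -24 to -16 and at -12 to -3. Rela was the only member with a promoter in the table and no match to either form in it. A match is a description of letters, not of binding in these cells.

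Levels differed widely in how much they varied among the groups. Rela, which encodes the p65 subunit of the classical dimer, was the steadiest, with group means within 1.47-fold of each other. Nfkb1, the gene of p105 and its product p50, spanned 1.61-fold, and Rel, the gene of c-Rel, 1.76-fold. Bcl3, a nuclear member of the IkB family that binds p50 and p52 and can promote as well as block transcription, spanned 19.7-fold. Nfkbia, the gene of the classical inhibitor IkB alpha, spanned 7.21-fold. For Rela, Rel, Relb and Nfkbie no group in the order of means was clear of the next, whereas 3 of the 6 neighbouring pairs were clear of each other for Bcl3. In sham microglia Nfkb1 had the highest mean of the 10, at 34.0 CPM ± 0.481 (SD, n = 3), and Relb the lowest, at 2.64 CPM. In wildtype infiltrating myeloid cells Nfkbia ranked first, at 75.7 CPM ± 19.4 (SD, n = 3), and in Fgg390-396A infiltrating myeloid cells Bcl3 did, at 59.3 CPM ± 6.28 (SD, n = 3).

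**Figure D1:**
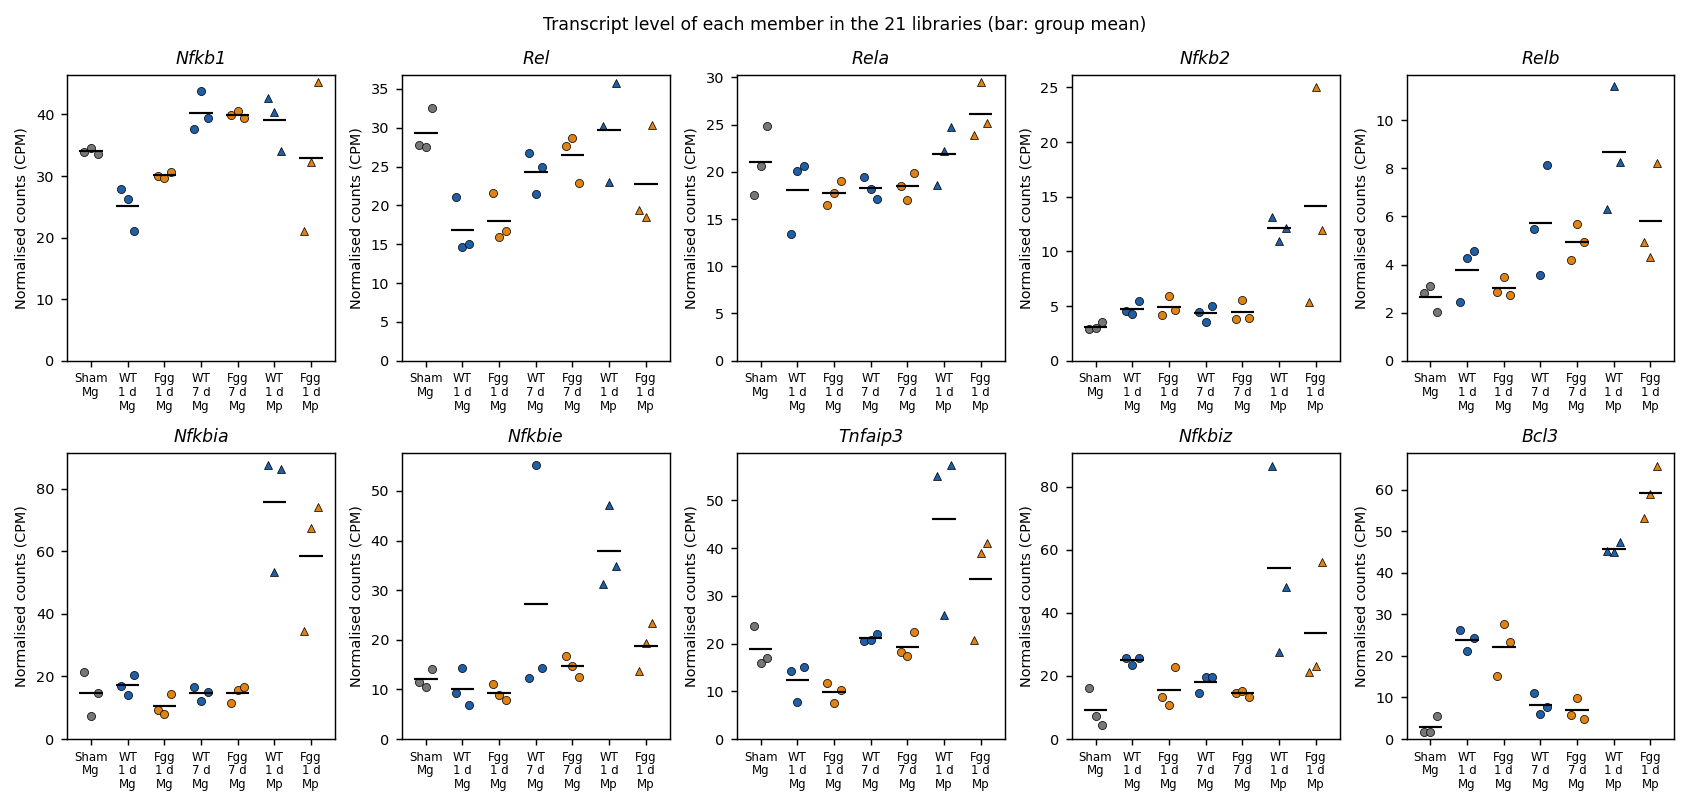
Level of each of the 10 transcripts as normalised counts (CPM, linear axes from 0), with 1 symbol per library, 3 libraries per group and a bar at the group mean; circles are microglia (Mg), triangles infiltrating myeloid cells (Mp), grey is sham, blue wildtype and orange Fgg390-396A. Rela stays between 13.4 and 29.5 CPM in the 21 libraries, Bcl3 goes from 1.72 to 65.7 CPM, and 1 wildtype library at 7 d holds 55.3 CPM of Nfkbie.

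The first comparison asked how injury changed these transcripts in wildtype microglia at 1 d. Bcl3 and Nfkbiz rose and Rel fell, and the other 7 did not pass the test (edgeR's quasi-likelihood test, Benjamini-Hochberg adjustment over 23815 genes, adjusted p under 0.05). Of all genes tested, 10.7% were called higher and 5.97% lower in this comparison. Bcl3 stood at 1.72, 1.75 and 5.56 CPM in the 3 sham libraries and at 26.2, 21.1 and 24.2 CPM in the 3 wildtype libraries at 1 d. Every injured library was above every sham library, the fitted change was 7.83-fold, and its log2 value was 2.97 ± 0.387 (SE; adjusted p = 1.9e-05). The highest sham value came from replicate 3, the library with the most neutrophil transcripts, and without it the log2 fold change was 3.78 (edgeR adjusted p = 1.6e-06). The sum of the monocyte markers also moved with this comparison, at 7.36 to 73.0 CPM in sham and 89.3 to 161 CPM in wildtype microglia at 1 d, with 7 to 9 and 8 to 9 of the 10 above 3 counts. Of these markers 1 was called higher and 9 were not called, with a median log2 fold change of 0.48. Their part in the higher Bcl3 and Nfkbiz was not tested.

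Nfkbiz encodes IkB zeta, a nuclear protein induced by toll-like receptor and interleukin-1 signals that is needed for a set of secondary response genes. Its sham levels were 16.1, 7.44 and 4.40 CPM and its levels at 1 d were 25.7, 23.6 and 25.6 CPM in wildtype microglia. The groups did not overlap, and the log2 fold change was 1.43 ± 0.449 (SE; edgeR adjusted p = 0.033). The highest sham level belonged to replicate 1, the library with the most dissociation transcripts, whose part in the result was not tested. Without that library the log2 fold change of Nfkbiz was 2.08 (edgeR adjusted p = 0.0051). The call was lost when any 1 of the other 5 libraries was left out, with adjusted p between 0.058 and 0.14.

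Rel, the c-Rel subunit, moved the other way. It was at 27.8, 27.6 and 32.5 CPM in sham and at 21.0, 14.7 and 14.98 CPM in wildtype microglia at 1 d. All injured libraries lay below all sham libraries, and the log2 fold change was -0.79 ± 0.217 (SE; edgeR adjusted p = 0.014). The call was lost without sham replicate 3, without wildtype 1 d replicate 2 and without wildtype 1 d replicate 3, with adjusted p of 0.055, 0.10 and 0.10. Nfkb1 was also below sham in every wildtype library at 1 d (21.2 to 27.9 against 33.5 to 34.5 CPM), but its log2 fold change of -0.44 ± 0.197 (SE) did not pass in edgeR (adjusted p = 0.15). Nfkb1 passed with DESeq2 and when edgeR was fitted without the infiltrating cells, both at an adjusted p of 0.022. Nfkb2 and Relb had log2 fold changes of 0.60 and 0.51 and Rela one of -0.22 (edgeR adjusted p = 0.31, 0.36 and 0.45).

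Among the classical negative feedback genes none passed the test in wildtype microglia at 1 d. Nfkbia was at 21.6, 7.48 and 14.8 CPM in sham and at 17.1, 14.0 and 20.4 CPM in wildtype microglia at 1 d. The groups overlapped, and the approximate 95% interval of the log2 fold change was -0.43 to 0.89. Tnfaip3, which encodes A20, an enzyme that edits ubiquitin chains upstream of the kinase complex, was at 23.7, 16.0 and 17.1 CPM in sham and at 14.3, 7.85 and 15.1 CPM at 1 d. Every injured library was lower, and the log2 fold change of Tnfaip3 was -0.61 ± 0.306 (SE; edgeR adjusted p = 0.20). Sham replicate 1, the library with the most dissociation transcripts of its group, had the highest sham level of both Nfkbia and Tnfaip3. The part of these transcripts in either result was not tested. Over the alternatives the log2 fold change of Nfkbia ranged from -0.08 to 0.62, and it was never called. Nfkbie, the gene of IkB epsilon, which preferentially holds c-Rel and p65, had a log2 fold change of -0.26 ± 0.413 (SE; edgeR adjusted p = 0.76). Across the 10 members, sham and wildtype 1 d groups did not overlap in 6, and 33.8% of all genes tested did not overlap.

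Microglia of Fgg390-396A mice at 1 d, set against the same sham libraries, had 1 member higher, Bcl3, and 1 lower, Rel, where 7.6% of all genes were called higher and 2.19% lower. Bcl3 stood at 15.2, 27.8 and 23.3 CPM, which is 7.25-fold over sham, with a log2 value of 2.86 ± 0.385 (SE; edgeR adjusted p = 5.9e-05). Rel was at 21.5, 15.9 and 16.7 CPM, with a log2 fold change of -0.70 ± 0.216 (SE; edgeR adjusted p = 0.046). The call on Rel was lost when sham replicate 1, 2 or 3 or Fgg390-396A replicate 2 or 3 was left out, with adjusted p between 0.082 and 0.20. Tnfaip3 was at 11.7, 7.63 and 10.2 CPM, below all sham libraries, and its log2 fold change of -0.94 ± 0.307 (SE) narrowly missed the threshold in edgeR (adjusted p = 0.061). Tnfaip3 passed under 6 of the alternatives to this fit, with adjusted p between 0.0076 and 0.038. Nfkbiz was at 13.5, 10.8 and 22.8 CPM, overlapping the sham range. Without sham replicate 3 the log2 fold change of Bcl3 was 3.67. Monocyte markers summed to 36.8 to 111 CPM, overlapping sham, and 1 of the 10 was called higher, with a median log2 fold change of 0.92. The members other than Bcl3, Rel and Tnfaip3 had log2 fold changes between -0.48 (Nfkbia) and 0.75 (Nfkbiz).

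**Figure D2:**
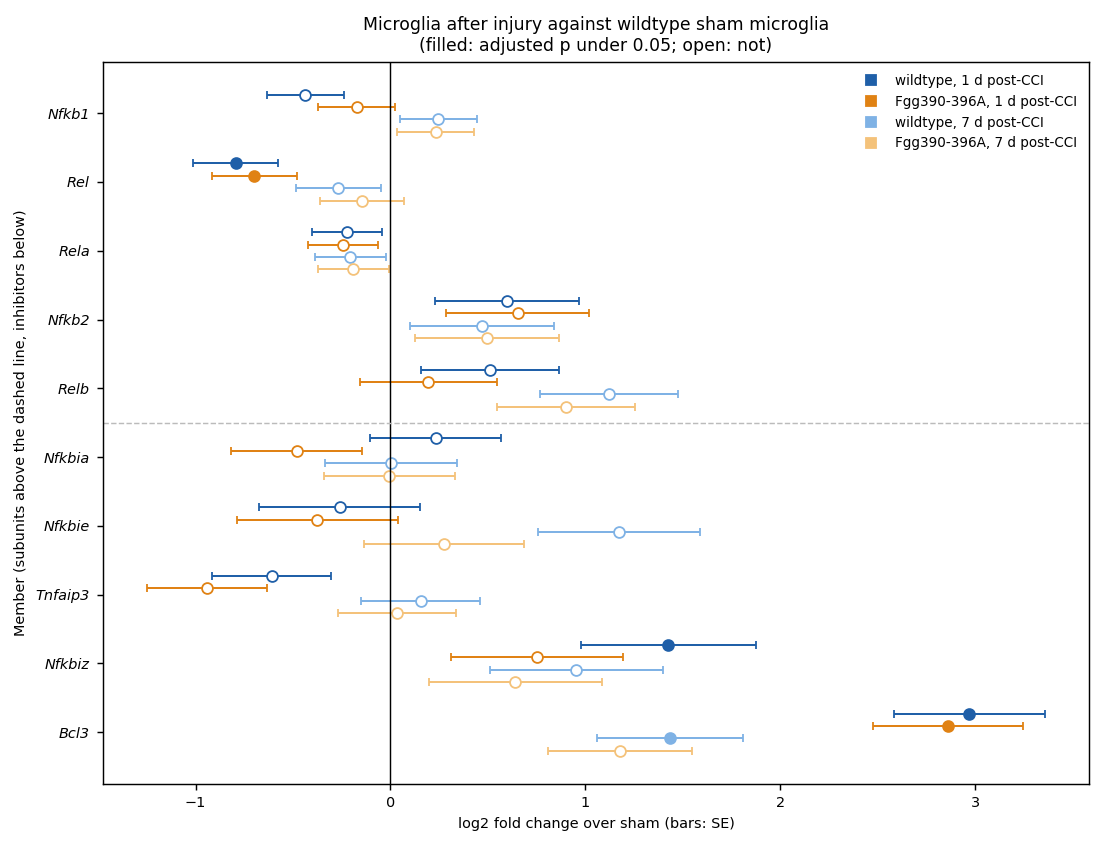
Log2 fold change over the 3 wildtype sham libraries for each transcript in microglia (x axis, bars are SE from edgeR); colours are the 4 injured groups, filled points have an adjusted p under 0.05 and open points do not. Bcl3 is above 0 in all 4 groups, from 1.18 to 2.97, and filled in 3 of them, while Rel is filled below 0 in both groups at 1 d.

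At 7 d fewer members were called against sham than at 1 d. In wildtype microglia 4 members had an unadjusted edgeR p under 0.05 on each day. DESeq2 called 4 members there at 1 d and 2 at 7 d. In wildtype microglia 1 member, Bcl3, was still called higher than sham (2.42% of all genes were) and 0 were called lower. Its levels were 11.04, 6.06 and 7.61 CPM, all above the sham libraries, with a log2 fold change of 1.43 ± 0.373 (SE; edgeR adjusted p = 0.043). This call was lost in fits of the compared groups only (adjusted p = 0.19) and of the microglia libraries only (adjusted p = 0.088), and when sham replicate 1 or 2 or wildtype 7 d replicate 1 or 3 was left out, with adjusted p between 0.088 and 0.22. Without sham replicate 3 the log2 fold change of Bcl3 was 2.24 (edgeR adjusted p = 0.00074). In Fgg390-396A microglia at 7 d 0 members were called in edgeR, where 0.886% of all genes were. DESeq2 called 0 there too, and 2 members had an unadjusted p under 0.05. Bcl3 was at 5.86, 9.98 and 4.84 CPM, with a log2 fold change of 1.18 ± 0.37 (SE; edgeR adjusted p = 0.23) that became 1.99 without sham replicate 3 (adjusted p = 0.0040). Relb, the partner of p52 in the alternative pathway, was above all sham libraries in both genotypes at 7 d. Its log2 fold changes were 1.12 ± 0.355 in wildtype and 0.90 ± 0.354 in Fgg390-396A microglia (SE; edgeR adjusted p = 0.12 and 0.48). With DESeq2 Relb passed in wildtype microglia (adjusted p = 0.034). Among the remaining members the log2 fold changes over sham at 7 d lay between -0.27 and 1.17 in wildtype and between -0.19 and 0.64 in Fgg390-396A microglia.

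Between 1 d and 7 d in wildtype microglia Bcl3 fell and Nfkb1 and Nfkbie rose, while 3.7% of all genes were called higher and 6.6% lower at 7 d. Bcl3 changed by -1.53 ± 0.366 on the log2 scale (SE; edgeR adjusted p = 0.0088), a call lost without wildtype 7 d replicate 2 (adjusted p = 0.056). Nfkb1 stood at 27.9, 26.3 and 21.2 CPM at 1 d and at 37.7, 43.9 and 39.5 CPM at 7 d. The groups did not overlap, and its log2 fold change was 0.68 ± 0.198 (SE; edgeR adjusted p = 0.030). That call was lost without wildtype 1 d replicate 2 or 3 or any 1 of the 7 d libraries, with adjusted p between 0.071 and 0.23. The call on Nfkbie rested on 1 library. Its levels were 9.20, 14.3 and 6.87 CPM at 1 d and 12.2, 55.3 and 14.4 CPM at 7 d, so replicate 2 at 7 d stood far above the rest. With all libraries the log2 fold change of Nfkbie was 1.43 ± 0.419 (SE; edgeR adjusted p = 0.032), and without that library it was 0.40 (adjusted p = 0.51). The same library had no such excess of the other members, for example 12.1 CPM of Nfkbia and 20.7 CPM of Tnfaip3.

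In Fgg390-396A microglia 1 member was called between the days, Bcl3, which was lower at 7 d by -1.68 ± 0.366 on the log2 scale (SE; edgeR adjusted p = 0.0081). In this comparison 4.56% of all genes were called lower. The call on Bcl3 was lost without Fgg390-396A 1 d replicate 2 or without 7 d replicate 1 or 3, with adjusted p between 0.052 and 0.058. Tnfaip3 was at 18.3, 17.4 and 22.4 CPM at 7 d, clear of its range at 1 d, with a log2 fold change of 0.97 ± 0.307 (SE; edgeR adjusted p = 0.074). It passed under 6 alternatives, with adjusted p between 0.011 and 0.05. In wildtype microglia Tnfaip3 was also higher at 7 d, with a log2 fold change of 0.76 ± 0.307 (SE; edgeR adjusted p = 0.14). Rel was higher at 7 d by 0.53 in wildtype and 0.55 in Fgg390-396A microglia (log2; edgeR adjusted p = 0.15 and 0.18). With DESeq2 Tnfaip3 passed in wildtype microglia (adjusted p = 0.042) and Rel in both genotypes (adjusted p = 0.037 and 0.034). The comparisons between days share their 1 d libraries with those against sham, so they are not separate evidence.

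The main question of the study was whether the Fgg390-396A allele changed these responses. In none of the 3 comparisons between genotypes was a member called at an adjusted p under 0.1 in edgeR, and DESeq2 called 0 members in each as well. The shares of all genes called were 0.0546% in microglia at 1 d, 0.0378% in microglia at 7 d and 0.495% in infiltrating myeloid cells. In each comparison 1 member had an unadjusted p under 0.05. Libraries of the 2 genotypes did not overlap in 2 members in microglia at 1 d, in 0 at 7 d and in 2 in infiltrating myeloid cells, against 8.72%, 11.1% and 8.02% of all genes.

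Nfkbia, the member with the unadjusted p under 0.05 in microglia at 1 d, was at 17.1, 14.0 and 20.4 CPM in wildtype and at 9.14, 8.11 and 14.3 CPM in Fgg390-396A mice. The lowest wildtype and the highest Fgg390-396A library overlapped, and the log2 fold change was -0.71 ± 0.338 (SE; edgeR adjusted p = 0.89), with an approximate 95% interval of -1.38 to -0.05. Nfkbiz did not overlap between genotypes at 1 d (23.6 to 25.7 CPM in wildtype and 10.8 to 22.8 CPM in Fgg390-396A microglia), with a log2 difference of -0.67 ± 0.44 (SE; edgeR adjusted p = 0.89). Nfkb1 did not overlap either, in the other direction, with 29.7 to 30.7 CPM in Fgg390-396A and 21.2 to 27.9 CPM in wildtype microglia (log2 difference 0.26, edgeR adjusted p = 0.90). The other members differed by between -0.33 and 0.10 in microglia at 1 d. The median log2 fold change of the 5 restraining genes was -0.33 in microglia at 1 d and -0.26 at 7 d, where that of all genes was 0. The signs of Nfkbie and Bcl3 at both days and of Nfkbia at 7 d changed under some alternatives, and no member was called. The sum of the dissociation genes at 1 d was 1084 to 1930 CPM in Fgg390-396A and 1747 to 2109 CPM in wildtype microglia, and its part in these differences was not tested.

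At 7 d the largest difference between genotypes was that of Nfkbie, at -0.90 ± 0.413 on the log2 scale (SE; edgeR adjusted p = 1.0). It came from the same wildtype replicate 2, and without it the difference in Nfkbie was 0.14. The other members differed by between -0.31 and 0.12 at 7 d. Their approximate 95% intervals still reached, for Nfkbia, from -0.67 to 0.65, so a change of this size in either direction could not be told from none.

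In infiltrating myeloid cells Nfkbie was lower in Fgg390-396A mice in every library. Its levels were 31.4, 47.2 and 34.9 CPM in wildtype and 13.8, 19.3 and 23.4 CPM in Fgg390-396A cells, a log2 fold change of -1.01 ± 0.412 (SE; edgeR adjusted p = 0.36) with an approximate 95% interval of -1.81 to -0.20. Bcl3 was higher in every library, at 53.2, 59.1 and 65.7 CPM against 45.2, 45.0 and 47.4 CPM, with a log2 difference of 0.37 ± 0.353 (SE; edgeR adjusted p = 0.73). The other members differed by between -0.69 (Nfkbiz) and 0.26 (Rela) in infiltrating myeloid cells. Fgg390-396A replicate 1 had the lowest Nfkb1, Nfkb2, Rela, Nfkbia, Nfkbie, Nfkbiz, Tnfaip3 and Bcl3 of its group, and also the lowest neutrophil sum, 2516 CPM. In wildtype cells the summed neutrophil markers were 8293, 3467 and 13000 CPM in replicates 1, 2 and 3, and replicate 2 had the lowest Nfkbia (53.3 CPM), Tnfaip3 (26.0 CPM) and Nfkbiz (27.6 CPM) but the highest Nfkbie (47.2 CPM) and Relb (11.4 CPM) of its group. The part of neutrophil transcripts in these levels was not tested.

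**Figure D3:**
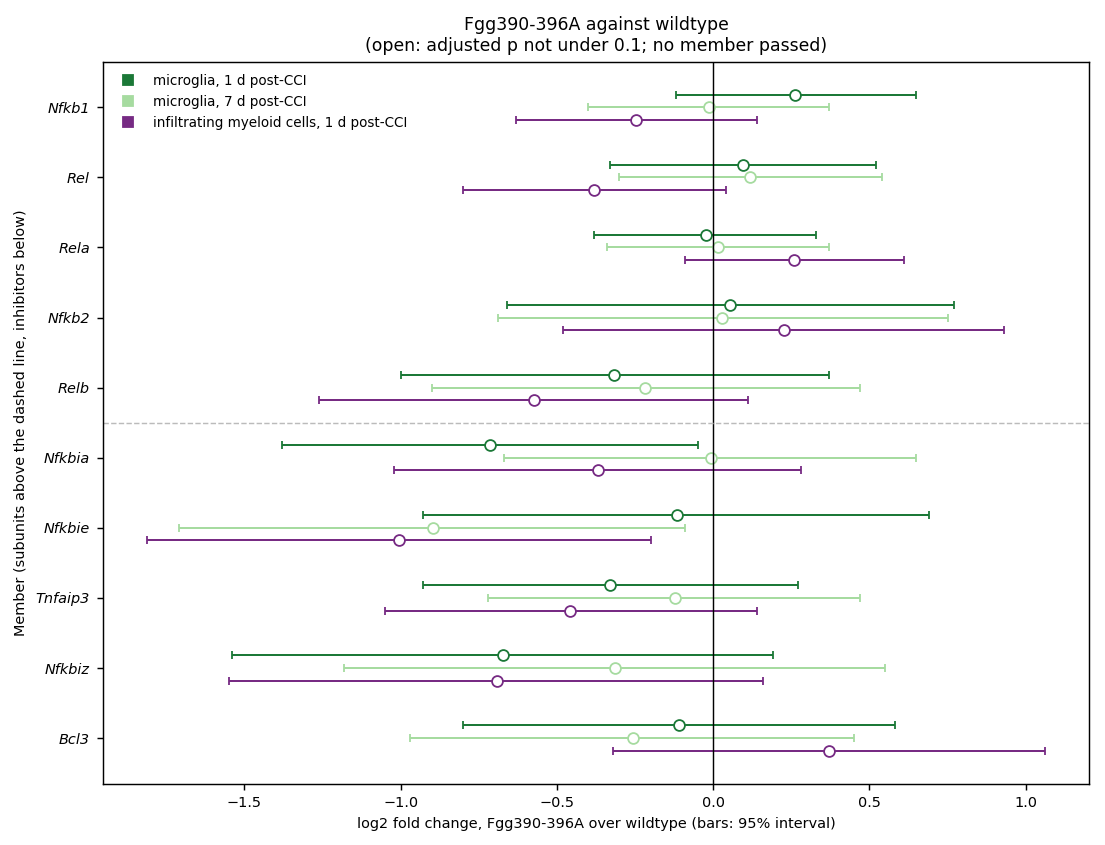
Log2 fold change of Fgg390-396A over wildtype for each transcript (x axis, bars are approximate 95% intervals, 3 libraries against 3) in microglia at 1 d, in microglia at 7 d and in infiltrating myeloid cells at 1 d. All points are open because no member reached an adjusted p under 0.1, and the intervals of Nfkbia in microglia at 1 d and of Nfkbie in the other 2 comparisons stop short of 0. All bars use a normal approximation and are narrower than the edgeR test implies.

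Whether the genotype effect depended on the day or the cell type was tested directly. The difference between the genotype effects at 7 d and 1 d in microglia was called for 0 members in edgeR, 0 in DESeq2, and 0 had an unadjusted p under 0.05, with 0% of all genes called. The difference between infiltrating myeloid cells and microglia was likewise called for 0 members by both tools, with 0 unadjusted p under 0.05, and for 0.0462% of all genes. The smallest p among members was that of Nfkb1 in the second test, with a log2 difference of -0.51 ± 0.278 (SE; edgeR adjusted p = 0.65).

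The clearest contrast was that between cell types at 1 d post-CCI. In wildtype mice 7 of the 10 members were higher in infiltrating myeloid cells than in microglia and 0 were lower, where 7.56% of all genes were called higher and 8.11% lower. These were the subunit genes Nfkb1, Nfkb2, Rel and Relb and the restraining genes Nfkbia, Nfkbie and Tnfaip3. In Fgg390-396A mice 5 were higher and 0 lower, Nfkb2, Rela, Nfkbia, Tnfaip3 and Bcl3, where 9.33% of all genes were called higher and 12.1% lower. The groups did not overlap in 9 members in wildtype and in 6 in Fgg390-396A mice, against 29.2% and 32.1% of all genes.

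Nfkbia was at 87.5, 53.3 and 86.3 CPM in wildtype infiltrating myeloid cells, against 14.0 to 20.4 CPM in wildtype microglia. It was 4.41-fold higher, with a log2 value of 2.14 ± 0.348 (SE; edgeR adjusted p = 0.00021). In Fgg390-396A cells it was at 34.4, 67.5 and 74.0 CPM against 8.11 to 14.3 CPM in microglia, 5.60-fold higher (log2 2.49 ± 0.353 SE, edgeR adjusted p = 4.2e-05). Tnfaip3 was at 55.0, 26.0 and 57.5 CPM in wildtype and at 20.7, 39.0 and 41.1 CPM in Fgg390-396A infiltrating cells. All of these were above the microglia of their genotype, with log2 fold changes of 1.90 ± 0.314 and 1.77 ± 0.312 (SE; edgeR adjusted p = 0.00025 and 0.00039). The calls on Nfkbia and Tnfaip3 held under every alternative run, including each left-out library, in both genotypes.

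Nfkbie was called in wildtype mice (31.4 to 47.2 against 6.87 to 14.3 CPM; log2 1.90 ± 0.424 SE, edgeR adjusted p = 0.0036) but not in Fgg390-396A mice (log2 1.01 ± 0.414 SE, edgeR adjusted p = 0.092), where it passed with filterByExpr, with the compared groups only and with DESeq2 (adjusted p = 0.049, 0.032 and 0.030). The difference between these values was not called (-0.89 ± 0.582 SE, edgeR adjusted p = 0.74). Bcl3 was at 45.0 to 47.4 CPM in wildtype infiltrating cells and at 21.1 to 26.2 CPM in microglia, with a log2 fold change of 0.94 (edgeR adjusted p = 0.084) that passed under the same 3 alternatives (adjusted p = 0.047, 0.0044 and 0.023). In Fgg390-396A mice Bcl3 was called, with a log2 fold change of 1.43 ± 0.36 (SE; edgeR adjusted p = 0.0072). Nfkbiz had a log2 fold change of 1.12 in wildtype and 1.1 in Fgg390-396A mice (edgeR adjusted p = 0.10 and 0.087) and passed under 3 alternatives in each, with adjusted p between 0.024 and 0.048. Its infiltrating cell libraries ranged from 27.6 to 86.6 CPM and from 21.1 to 56.2 CPM.

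Among subunits, Nfkb2, the gene of p100 and p52 of the alternative pathway, stood at 13.2, 10.95 and 12.2 CPM in wildtype infiltrating cells against 4.23 to 5.46 CPM in microglia (log2 1.35 ± 0.37 SE, edgeR adjusted p = 0.016). In Fgg390-396A infiltrating cells it was at 5.38, 25.1 and 11.98 CPM, overlapping the 4.15 to 5.97 CPM of microglia, and without replicate 2 its log2 fold change dropped from 1.53 to 0.82 (edgeR adjusted p = 0.0054 and 0.067). Nfkb2 exons overlap those of 2 genes on the opposite strand, Psd, whose level was at most 0.812 CPM, and a noncoding gene model whose level was not analysed here. Relb rose by 1.2 ± 0.354 and Rel by 0.81 ± 0.217 on the log2 scale in wildtype mice (SE; edgeR adjusted p = 0.025 and 0.013). In Fgg390-396A mice Relb had a log2 fold change of 0.94 (edgeR adjusted p = 0.063) and passed under 4 alternatives, with adjusted p between 0.012 and 0.041. Rel had a log2 fold change of 0.34 in Fgg390-396A mice (edgeR adjusted p = 0.28). Nfkb1 was higher by 0.64 ± 0.198 in wildtype mice (SE; edgeR adjusted p = 0.033) and had a log2 fold change of 0.13 in Fgg390-396A mice (adjusted p = 0.72). Rela, in turn, passed in Fgg390-396A mice only (log2 0.56 ± 0.181 SE, edgeR adjusted p = 0.032, against 0.28 and 0.33 in wildtype), and the difference between these was not called (edgeR adjusted p = 0.88). The calls on Nfkb1, Nfkb2, Rel and Relb in wildtype mice were each lost when some single libraries were left out, with adjusted p between 0.053 and 0.12. The call on Rela in Fgg390-396A mice was lost in the fit of the compared groups only and without any 1 of the microglia libraries or infiltrating cell replicate 2, with adjusted p between 0.052 and 0.11. Without wildtype microglia replicate 2 the count of members called fell from 7 to 4.

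**Figure D4:**
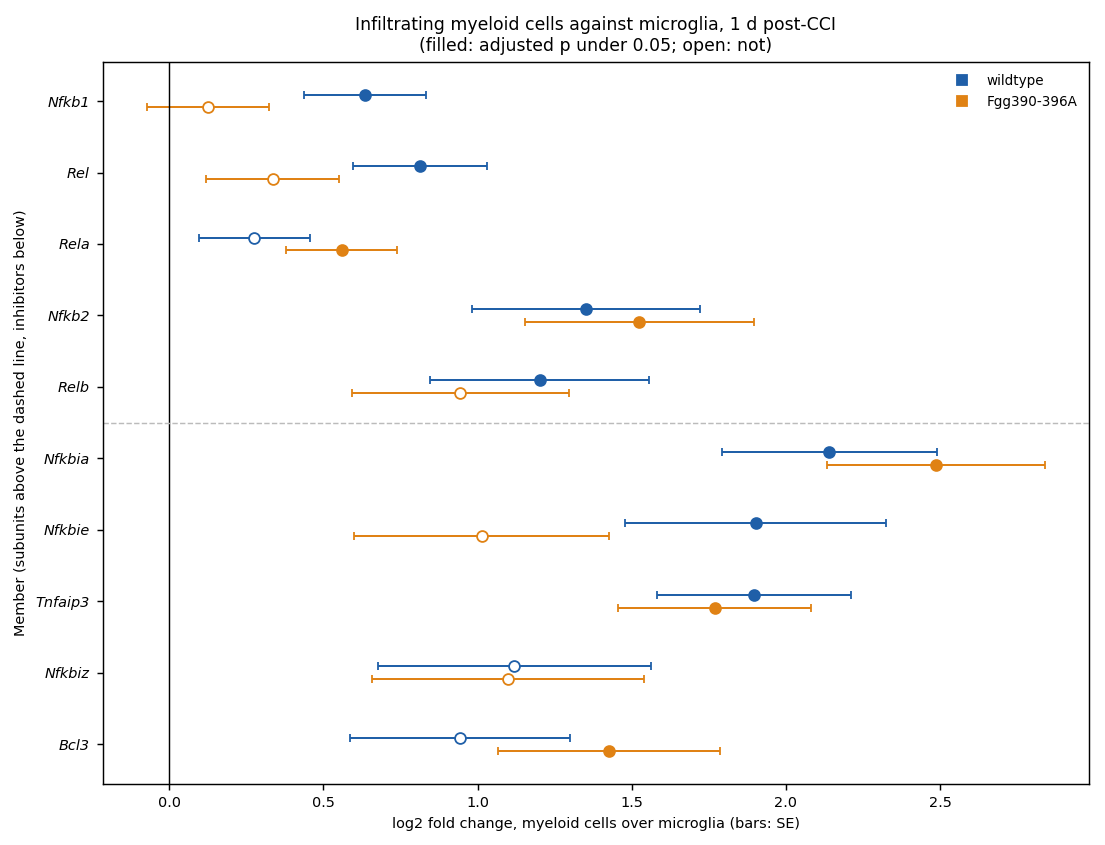
Log2 fold change of infiltrating myeloid cells over microglia of the same genotype at 1 d post-CCI (x axis, bars are SE from edgeR); blue is wildtype, orange Fgg390-396A, filled points have an adjusted p under 0.05. All 10 members lie above 0 in both genotypes, and Nfkbia has the largest value in each, at 2.14 and 2.49.

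With the 5 subunits and the 5 restraining genes each summed per library, the balance between them differed by cell type. The restraining genes summed to 0.648 ± 0.204 times the subunits in sham microglia (SD, n = 3), to 1.29 ± 0.115 times in wildtype and 0.913 ± 0.134 times in Fgg390-396A microglia at 1 d, and to 0.963 ± 0.254 and 0.743 ± 0.0268 times at 7 d. In infiltrating myeloid cells the ratio was 2.33 ± 0.459 in wildtype and 1.99 ± 0.142 in Fgg390-396A mice (SD, n = 3). The wildtype microglia at 1 d ranged from 1.16 to 1.38 and the Fgg390-396A microglia from 0.809 to 1.06, without overlap. At 7 d they ranged from 0.801 to 1.26 and from 0.714 to 0.766, also without overlap. The value of 1.26 was that of wildtype replicate 2, the library with 55.3 CPM of Nfkbie. In infiltrating myeloid cells the ranges of 1.84 to 2.76 in wildtype and 1.90 to 2.15 in Fgg390-396A mice overlapped. No member was called between genotypes. From sham to wildtype microglia at 1 d, mean Bcl3 went from 3.01 to 23.8 CPM and mean Nfkbiz from 9.30 to 25.0 CPM. Nfkbia went from 14.6 to 17.2 CPM, Nfkbie from 12.1 to 10.1 CPM and Tnfaip3 from 18.9 to 12.4 CPM. The subunits summed to 90.1 CPM in sham and 68.6 CPM in wildtype microglia at 1 d. These sums are given as a description with no test, since the members were chosen with results of these data known, and Bcl3 and Nfkbiz also promote transcription.

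**Figure D5:**
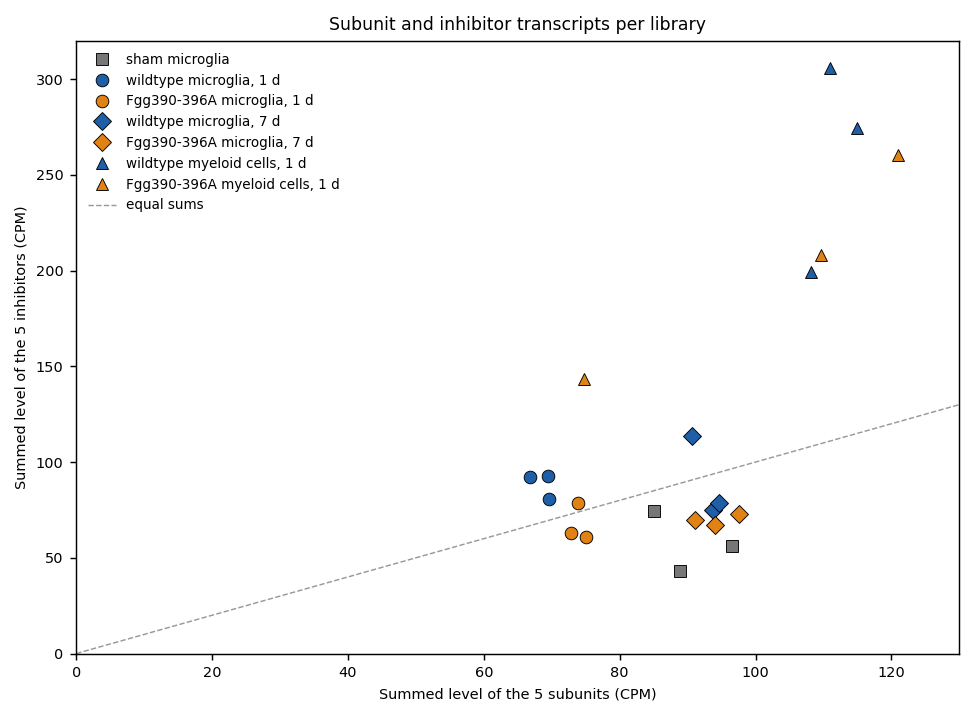
Summed level of the 5 restraining genes against that of the 5 subunits, in CPM, with 1 symbol per library and a dashed line of equal sums. The 6 libraries of infiltrating myeloid cells have 143 to 306 CPM of restraining genes, above the 43.2 to 113.8 CPM of all microglia libraries, while the subunits range from 66.8 to 121 CPM over the 21 libraries.

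Other genes of the pathway were taken from lists. Of 32 kinases and adaptors upstream of NF-kB, 2 were higher and 5 lower in wildtype microglia at 1 d than in sham, with a median log2 fold change of -0.26, where 10.7% of all genes were higher and 5.97% lower. Ikbke, an inducible IkB kinase, was at 2.25 CPM ± 0.473 against 0.164 CPM ± 0.148 in sham (SD, n = 3; log2 3.68, edgeR adjusted p = 0.00011). Irak2, an adaptor kinase of toll-like and interleukin-1 receptors, went the other way, at 13.5 CPM ± 2.39 against 34.1 CPM ± 5.61 (SD, n = 3; log2 -1.33, edgeR adjusted p = 0.00010). Of 18 other inhibitors, 3 were higher and 2 lower, among them Commd1 at a log2 fold change of 1.66 and N4bp1 at -0.71 (edgeR adjusted p = 0.00048 and 0.010). Of 25 textbook targets of NF-kB, 13 were higher and 0 lower, with a median log2 fold change of 2.62. Ptgs2, the gene of cyclooxygenase 2, was at 36.1 CPM ± 10.96 against 0.183 CPM ± 0.107 (SD, n = 3; log2 7.53, edgeR adjusted p = 8.3e-08), and Ccl2, a monocyte chemokine, at a log2 fold change of 5.27 (edgeR adjusted p = 5.5e-07).

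In Fgg390-396A microglia at 1 d, 12 of the 25 targets were higher than in sham and 0 lower. The median log2 fold change of the 25 was 1.93. Of the 32 kinases and adaptors 1 was higher and 2 lower, and of the 18 other inhibitors 1 was higher and 0 lower. Of all genes, 7.6% were called higher and 2.19% lower. Ikbke, Irak2 and Commd1 had log2 fold changes over sham of 2.99, -1.04 and 1.37 (edgeR adjusted p = 0.0011, 0.0016 and 0.004). Between genotypes, 0 of the 32 kinases and adaptors and 0 of the 18 other inhibitors were called in any of the 3 comparisons. Of the 25 targets 1 was called, Ptgs2 in microglia at 1 d, where 0.0546% of all genes were called, at 7.94 CPM ± 4.06 in Fgg390-396A and 36.1 CPM ± 10.96 in wildtype mice (SD, n = 3; log2 -2.20, edgeR adjusted p = 0.063). In infiltrating myeloid cells over microglia of wildtype mice, 11 kinases and adaptors, 6 other inhibitors and 9 targets were higher, and 1 gene of the 3 lists was lower, Traf5, where 7.56% of all genes were called higher and 8.11% lower. Malt1, a protease that relays antigen and C-type lectin receptor signals, was 2.06 higher on the log2 scale, Irak3, a brake on toll-like receptor signals, 2.18 higher, and Il1b 4.56 higher (edgeR adjusted p = 2.5e-05, 0.00019 and 3.3e-05). The same comparison had 14 of the 25 dissociation genes higher and 0 lower, with sums of 3838 to 6116 CPM against 1747 to 2109 CPM in microglia. The part of these dissociation genes in the higher Nfkbia, Tnfaip3 and Nfkbie was not tested. In Fgg390-396A mice, genes of the 3 pathway lists went both ways between cell types, where 9.33% of all genes were called higher and 12.1% lower. Card9, Traf5, Nkrf and Icam1 were among those called lower. Traf1, Irak2, Tnip1, Irak3, Ptgs2 and Il1b were among those called higher. Over all genes, 5092 were called in this comparison and 3732 in that of wildtype mice. The names called in each are therefore not a comparison of the genotypes.

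Over all 21 libraries the log2 levels of the members were related to each other to different degrees. Pearson's r over the 45 pairs ranged from -0.259, for Rel with Bcl3, to 0.845, for Nfkbia with Tnfaip3, with a median of 0.472 and 3 pairs below 0. Among 5368 genes with a mean of at least 10 CPM, the pattern most like that of Bcl3 was that of Ifi30 (r = 0.973). Nfkbia was most like Btg1 (r = 0.958), Tnfaip3 most like Pnrc1 (r = 0.94), Nfkbiz most like Gadd45b (r = 0.936) and Nfkb2 most like Uhrf1bp1l (r = 0.917). Rel was most like Gm26759 (r = 0.905), Relb most like Kxd1 (r = 0.85), Nfkbie most like Gab2 (r = 0.824), Nfkb1 most like Mgea5 and Rela most like Slc43a2 (both r = 0.819). These values describe likeness over libraries that share groups, cell types and depth, and carry no p.

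On GRCm38 Relb and Bcl3 lie on chromosome 7, Nfkb2 and Rela on chromosome 19, and the others on chromosomes 3, 10, 11, 12, 16 and 17. Nfkb1, at chr3:135584655-135691547, shares a chromosome with Fgg, at a distance of 52.6 Mb, so wildtype and Fgg390-396A mice could differ there in linked sequence, which was not tested. Bcl3, at chr7:19808462-19822770, overlaps the gene model Gm16175, which had 0 counts in all libraries.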

How the data were processed

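RNA of sorted microglia and infiltrating myeloid cells was measured in 21 libraries, 3 per group. What the authors deposited are expected counts, estimated by salmon (nf-core/rnaseq, GRCm38) and scaled to remove gene length within a library, with no normalization between libraries. Library preparation was not described as stranded, so overlapping genes on opposite strands cannot be told apart. Values were rounded to whole counts. Of 45706 identifiers, 45143 matched GENCODE M21, which gave symbols and positions.

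The main test was the quasi-likelihood test of edgeR 4.0.16 (glmQLFit and glmQLFTest, R 4.3.3) with TMM scaling and Benjamini-Hochberg adjustment, fitted to the 21 libraries together, each group having its own mean. It covered the 23815 genes that reached 5 counts in total. A gene was called at an adjusted p under 0.05, and under 0.1 between genotypes and for interactions. The study also set a bar on the fold change, which is an alternative here. Correlations used log2 CPM with a prior count of 2. Labels give no more than replicate numbers, so p-values measure the spread between pooled libraries.

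The members and lists were chosen with earlier results of these data known, and lists are described by counts and medians only. All 10 members were tested in every comparison whatever their values, but not every value is printed. From each list, at most the 2 called genes of lowest adjusted p per direction are named. On simulated data for wildtype microglia at 1 d against sham, with 200 of 23328 genes changed by a log2 fold change of 2, edgeR recovered 70% and called 3 others. The real libraries differ from this setting, since 3970 genes were called there. Among members only Bcl3 changed by more than the simulated amount, so these figures do not carry over to the tests of the others. Same-numbered libraries deviated together most between genotypes in microglia at 1 d (r between 0.104 and 0.372). Their r was also above 0 between wildtype infiltrating cells and microglia (0.0227 to 0.166). It was above 0 but smaller between genotypes in microglia at 7 d (0.0139 to 0.0934) and in infiltrating cells (0.00863 to 0.085). Alternatives were DESeq2 1.42.0, its size factors, libraries without genes annotated as ribosomal RNA, other filters on low counts, a replicate block, the compared groups only, a bar on the fold change, leaving out each library, and, chosen after seeing the data, microglia libraries only. A wider set, which adds other ribosomal gene models, held 43.0% to 58.6% of counts. Those added models stayed in under every alternative that drops ribosomal RNA genes.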

Additional observations from a re-analysis of the deposited data

How the results depend on the processing

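No member's called direction reversed under any alternative. In wildtype microglia at 7 d against sham the count of members called was 1, and it was 0 in fits of the compared groups or of microglia libraries only and 2 with DESeq2. Against sham, Fgg390-396A microglia at 1 d had 1 member called, not 2, when a log2 fold change above 1 was also required. That bar removed 6 calls over all comparisons. Rel was lost against sham at 1 d in both genotypes, and Nfkb1 was lost between days in wildtype microglia. Between cell types, Nfkb1 and Rel were lost in wildtype mice and Rela in Fgg390-396A mice. Between days, wildtype microglia had 5 members called with DESeq2, against 3. In Fgg390-396A microglia between days the count was 1, and it was 2 with DESeq2's size factors, filterByExpr, the replicate block, the compared groups only or microglia only, and 3 with DESeq2, Tnfaip3 being the addition at 2. In Fgg390-396A infiltrating cells over microglia it was 5, and 8 with filterByExpr or DESeq2. The replicate block also gave 3 members, not 2, in Fgg390-396A microglia at 1 d against sham (Tnfaip3 added, edgeR adjusted p = 0.038) and changed no other count of members called. In microglia at 1 d between genotypes, where same-numbered libraries deviated together most, the block left 0 members called.

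Leaving out 1 library at a time, members called ranged from 1 to 3 in wildtype microglia at 1 d against sham, 0 to 1 at 7 d, 1 to 2 and 0 to 1 in Fgg390-396A microglia at 1 d and 7 d, 0 to 2 and 0 to 1 between days in wildtype and Fgg390-396A microglia, 4 to 6 and 4 to 5 between cell types, and 0 to 0 between genotypes and for both interactions.

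Over all genes, DESeq2 called 131, 90 and 1102 genes between genotypes (microglia at 1 d, at 7 d, infiltrating cells), against 13, 9 and 118 with edgeR, and 33 and 259 in the interactions, against 0 and 11. Against sham it called 3564 genes in Fgg390-396A microglia at 1 d (2333 with edgeR) and 1323 and 585 at 7 d in wildtype and Fgg390-396A microglia (640 and 211). Between days it called 3901 and 2365 genes (2453 and 1343). The compared groups alone gave 8, 20 and 7 genes between genotypes, 124 in Fgg390-396A microglia at 7 d against sham, 2527 between cell types in Fgg390-396A mice (5092) and 0 in the second interaction. In infiltrating cells between genotypes, filterByExpr gave 205 and the replicate block 72. DESeq2's size factors moved higher against lower calls from 1811 and 522 to 1489 and 796 in Fgg390-396A microglia at 1 d against sham, and from 257 and 1086 to 363 and 837 between days. The median log2 fold change of all genes was -0.13 in Fgg390-396A infiltrating cells over microglia. The lowest count of a member in any library was 46 (Bcl3 in sham replicate 2), against a detection floor of 3.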
